A study of Mus musculus with 11 samples.

Results

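The genes described are 10 that encode enzymes of glycolysis: Hk1, Gpi1, Pfkl, Aldoa, Gapdh, Pgk1, Pgam1, Eno1, Pkm and Ldha. They were taken by symbol from the 4 deposited expression tables, 1 for each age, and all 10 were found among the 18667 genes that the tables share. All 10 also passed the filter on low values and were tested among 9172 genes. Expression was measured by single-cell RNA sequencing (10x Chromium droplets) in cells dissociated from the cochlear epithelium of Wildtype CD1 mice at embryonic days 14 and 16 (E14, E16) and postnatal days 1 and 7 (P1, P7). E14 gave 2 libraries, E16 gave 3, P1 gave 4 and P7 gave 2, which the labels number 4 and 5. No treatment or mutant was part of these samples, each library was a pool of animals from 1 litter, and each age was captured separately, so that age cannot be told apart from capture.

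Glycolysis splits glucose into pyruvate in the cytosol and yields ATP without oxygen. Hexokinase (Hk1) phosphorylates glucose, Gpi1 converts the product to fructose 6-phosphate, and phosphofructokinase (Pfkl) commits it to the pathway. Aldolase (Aldoa) then cleaves the sugar. Gapdh oxidizes the resulting triose, Pgk1 makes the first ATP, Pgam1 moves the phosphate, enolase (Eno1) removes water, and pyruvate kinase (Pkm) makes the last ATP. Lactate dehydrogenase (Ldha) turns pyruvate into lactate. Several steps have isozymes encoded by other genes, which differ between tissues. In the cochlea, hair cells (HCs) convert sound into electrical signals, supporting cells (SCs) surround them, and the epithelium has no blood vessels of its own.

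Cells were placed in 4 classes by lists of marker genes that hold no member. The lists gave 1865 HCs, 1548 lateral SCs (pillar and Deiters' cells, and at E14 lateral prosensory cells), 17531 cells of Kölliker's organ (KO), the columnar epithelium medial to the HCs, and 1034 interdental cells, which lie at its medial edge, of 30634 cells in all. At E16 the study still describes lateral prosensory cells, with Fgfr3 and Prox1, which are both in the lateral SC list. The E16 lateral SC class may thus hold such cells too. At E14 the gates held 33 HCs and 48 lateral SCs, and at P7 no interdental cells. Each class of each library was summarized as 1 profile, the mean over cells of a gene's unique molecular identifiers (UMIs) scaled to a total of 1000000 in each cell (CPM). CPM is a share, so that a gene's CPM also moves when other genes change. Since cells were gated by these lists, their sums describe the gates and are no independent check of the names. At P1 the 12 HC markers summed to between 21310 and 27200 CPM in HCs and to between 191 and 373 CPM in lateral SCs, and the 10 lateral SC markers to between 5640 and 7602 CPM in lateral SCs and between 316 and 444 CPM in HCs. At E14 the gap was smaller, with lateral SC marker sums between 472 and 544 CPM in HCs and between 1860 and 2169 CPM in lateral SCs. The 12 KO markers did not separate KO from interdental cells, with sums between 19110 and 23600 CPM in KO and between 14510 and 25650 CPM in interdental cells at P1, whereas the interdental markers summed to between 331 and 492 CPM in KO and between 5988 and 8562 CPM in interdental cells. Markers of glia and of mesenchyme summed to at most 150 and 88.9 CPM in any profile. The libraries held 3828399 to 23523802 UMIs, with 2478 to 5648 per cell at the median, and pairs of libraries of the same age shared 5 to 27 cell barcodes.

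Libraries of 1 age differed in the members as a group. The 10 genes together took 0.400% of UMIs in HCs of E16 replicate 3 against 0.271% and 0.266% in replicates 1 and 2, and replicate 3 was the highest of the 3 in all 4 classes. At P1, replicate 1 was the lowest of the 4 libraries in all 4 classes. Blood haemoglobin genes reached 1791 CPM in HCs of 1 E16 library and their part in the results was not tested.

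In the mm10 build (GRCm38.p6), RefSeq places Hk1 at chr10:62268855-62379920, Gpi1 at chr7:34201327-34230336, Pfkl at chr10:77986947-78009807, Aldoa at chr7:126795234-126800994 and Gapdh at chr6:125161852-125166467, all on the minus strand. Pgk1 lies at chrX:106187100-106203699, Pgam1 at chr19:41911871-41918665, Eno1 at chr4:150236708-150248879, Pkm at chr9:59656576-59679372 and Ldha at chr7:46842274-46855627, all on the plus strand. Many glycolysis genes are textbook targets of the hypoxia-inducible factors, which bind ACGTG or GCGTG. These 2 words were searched on both strands of the 250 bases before each RefSeq start, with CACGTG counted on both strands. At least 1 match was found before 12679 of 32851 RefSeq starts (38.6%), and before 13 of the 17 starts listed for the members (76.5%), which belong to 9 of the 10 members. Gpi1 has 1 start, with no match. Windows of nearby starts overlap, as for Aldoa starts 2 and 3 and Eno1 starts 2 and 3, so that 1 match can count more than once. Both words hold the letters CG, and starts were not matched for CG content. The cause of the difference between the 2 shares was not tested. The window of Pgk1 is shown because its difference between HCs and lateral SCs changed from E16 to P1, that of Ldha because it fell between ages in each of the 4 classes, and that of Pgam2, the muscle isozyme of Pgam1, because it was high in P1 HCs. Pgk1 has its window at chrX:106186850-106187099, plus strand, just before the gene, Ldha at chr7:46845554-46845803, plus strand, before the first of 2 listed starts and inside the annotated gene span, and Pgam2 at chr11:5803797-5804046, minus strand. Matches are in capitals: Pgk1 has 2, Ldha 5 and Pgam2 none, which says only that these letters are not in this window.
Pgk1: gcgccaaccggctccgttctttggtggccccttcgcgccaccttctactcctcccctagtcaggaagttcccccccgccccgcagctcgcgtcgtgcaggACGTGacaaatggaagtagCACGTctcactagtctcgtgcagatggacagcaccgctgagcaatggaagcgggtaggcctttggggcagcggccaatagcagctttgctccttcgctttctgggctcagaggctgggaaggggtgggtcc
Ldha: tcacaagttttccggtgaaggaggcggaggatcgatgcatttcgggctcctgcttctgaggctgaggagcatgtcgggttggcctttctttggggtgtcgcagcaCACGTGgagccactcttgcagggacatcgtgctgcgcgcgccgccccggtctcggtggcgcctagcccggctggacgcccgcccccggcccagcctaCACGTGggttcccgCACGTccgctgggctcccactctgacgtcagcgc
Pgam2: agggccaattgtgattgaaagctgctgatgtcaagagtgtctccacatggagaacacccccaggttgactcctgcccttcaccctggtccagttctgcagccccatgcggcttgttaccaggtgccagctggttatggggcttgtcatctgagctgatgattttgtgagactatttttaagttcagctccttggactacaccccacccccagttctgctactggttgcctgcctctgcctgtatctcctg

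As a first step, HCs were compared with lateral SCs of the same libraries. Pgk1, Eno1 and Pkm, of the ATP-making end of the pathway, were lower in HCs at E16, P1 and P7. Eno1 was 12.4-fold and Pgk1 7.85-fold lower in P1 HCs, and Pkm was 2.55-fold lower. Aldoa went the other way and was 2.09-fold higher in HCs at P1. Differences were tested with limma on log2(CPM + 10), in 1 fit over all class profiles with the library as a block, and p-values were adjusted over the 9172 genes. At P1, 6 members were lower in HCs (Gapdh, Pgk1, Pgam1, Eno1, Pkm, Ldha) and 3 were higher (Hk1, Gpi1, Aldoa), while of all genes tested 22.4% were lower and 21.7% higher. The median log2 difference of the 10 members was -0.39, beside 0.00 for all genes. With cells thinned to 1500 UMIs 5 members were called, and those lost were Hk1, Gpi1, Gapdh and Ldha (adjusted p = 0.0999, 0.0501, 0.287 and 0.0607).

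Eno1, which makes phosphoenolpyruvate, was at 61.0, 86.4, 93.5 and 118 CPM in HCs of the 4 P1 libraries and at 683, 1244, 1155 and 1365 CPM in lateral SCs. The lowest lateral SC profile was well above the highest HC profile. The log2 difference was -3.48 ± 0.20 (SE; limma adjusted p = 5.4e-19). It was -2.74 ± 0.23 at E16 and -2.74 ± 0.28 at P7. The ratio of the HC to the lateral SC mean was 0.0807 at P1. The lateral SC marker sum in the same HCs, 316 to 444 CPM beside 5640 to 7602 CPM in lateral SCs, was also a small share of its own level, and the part of free RNA in the Eno1 signal of HCs was not tested. In KO, Eno1 was at 151, 252, 265 and 249 CPM at P1, between the other classes. RefSeq also lists a near-identical copy, Eno1b, at a mean of 6.93 CPM, so that reads of the pair may have been split.

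Pgk1, phosphoglycerate kinase, was at 85.1, 42.6, 52.1 and 71.7 CPM in P1 HCs and at 486, 404, 465 and 619 CPM in lateral SCs. The highest HC profile lay far below the lowest lateral SC profile. The log2 difference was -2.81 ± 0.17 at P1 (adjusted p = 3.3e-18) and -3.34 ± 0.24 at P7, where HCs were at 48.1 and 67.5 CPM and lateral SCs at 757 and 593 CPM. At E16 the HC profiles lay at 131, 109 and 125 CPM and the lateral SC profiles at 253, 264 and 355 CPM, a log2 difference of -1.18 ± 0.20.

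Pkm, pyruvate kinase of most tissues outside liver and blood, was at 299, 455, 449 and 649 CPM in P1 HCs and at 779, 1400.0, 1228 and 1319 CPM in lateral SCs. Within each library the lateral SC value was more than 2 times the HC value. The log2 difference was -1.05 ± 0.20 at E16, -1.35 ± 0.17 at P1 (adjusted p = 8.6e-09) and -1.30 ± 0.24 at P7. Eno1, Pgk1 and Pkm kept these calls at all 3 ages under every alternative run.

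The other members lower in HCs at P1 differed less. Ldha was at 240 ± 46.5 CPM in HCs and 357 ± 76.5 CPM in lateral SCs (SD, n = 4), with overlapping ranges and a log2 difference of -0.55 ± 0.15. Pgam1 was at 266 ± 32.1 and 362 ± 43.4 CPM, a log2 difference of -0.43 ± 0.14. Gapdh, often used as a reference gene, was at 394 ± 70.9 and 505 ± 105 CPM, a log2 difference of -0.34 ± 0.13. The Gapdh call was lost without P1 replicate 1, 2 or 3 (adjusted p = 0.158, 0.153 and 0.118), and the Pgam1 call without replicate 2 or 3. At P7 Gapdh was at 410.0 and 348 CPM in HCs and at 717 and 628 CPM in lateral SCs, a log2 difference of -0.81 ± 0.19 that held under every alternative.

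Of the members of the early steps, Aldoa, Gpi1 and Hk1 were higher in HCs at P1, and Pfkl did not pass the test. Aldoa was at 989, 1220.0, 1265 and 767 CPM in P1 HCs and at 411, 599, 593 and 430 CPM in lateral SCs, without overlap. The log2 difference was 1.04 ± 0.15 at P1 (adjusted p = 1.3e-07) and 1.00 ± 0.17 at E16, and both calls held under every alternative. At P7 it was 0.41 ± 0.21 and did not pass (adjusted p = 0.13). Gpi1, glucose-6-phosphate isomerase, was at 300, 400.0, 439 and 287 CPM in P1 HCs and at 159, 238, 301 and 191 CPM in lateral SCs. The ranges met, but HCs were higher in each of the 4 libraries, and the log2 difference was 0.68 ± 0.17 at P1 and 0.64 ± 0.23 at P7, the latter lost without either P7 library. At E16 Gpi1 was at 179 CPM in HCs and 181 CPM in lateral SCs.

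Hk1, the hexokinase of most adult tissues, was the member nearest to the detection limit. It was at 21.2, 19.5, 18.8 and 29.7 CPM in P1 HCs and at 5.85, 16.1, 9.80 and 4.04 CPM in lateral SCs. The log2 difference of 0.80 ± 0.22 was lost without P1 replicate 4 (adjusted p = 0.093). Pfkl, the liver-type phosphofructokinase, was at 87.5, 86.9, 88.4 and 64.5 CPM in P1 HCs and at 121, 141, 127 and 46.1 CPM in lateral SCs. It did not pass the test (log2 difference -0.28 ± 0.23, adjusted p = 0.33), and it passed as lower in HCs (adjusted p = 0.017) when each profile was weighted by its estimated precision. At P7 the log2 difference was -0.63 ± 0.33 (adjusted p = 0.13, weighted 0.0375).

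At E16, 6 members were lower in HCs and 1 was higher, where 13.1% of all genes were lower and 15% higher. At P7, 4 were lower and 1 higher, where 18.5% of all genes were lower and 20.4% higher. The E16 calls of Gapdh (adjusted p = 0.0055) and Pgam1 (adjusted p = 0.035) were lost without E16 replicate 1, and that of Pgam1 also without replicate 3 and in 12 of 26 alternatives in all (highest adjusted p = 0.561). At E14 the HC profiles rested on 15 and 18 cells. There 2 members, Hk1 and Eno1, were called lower in HCs and none higher, where 15.2% of all genes were lower and 11.8% higher. With profiles weighted by precision 1 member, Hk1, was called lower, as were 2.27% of all genes. Eno1 was at 278 and 185 CPM in E14 HCs and at 978 and 636 CPM in lateral SCs (adjusted p = 7.3e-06, weighted 0.051). No Hk1 UMI was seen among 206548 UMIs of the 33 E14 HCs, where 3 UMIs would be 14.5 CPM, and 8 were seen among 274412 UMIs of the 48 lateral SCs. HC profiles at 0 hold no spread, and the fit does not weigh the counting error of so few UMIs. The E14 call of Hk1 thus cannot show a difference.

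**Figure D1:**
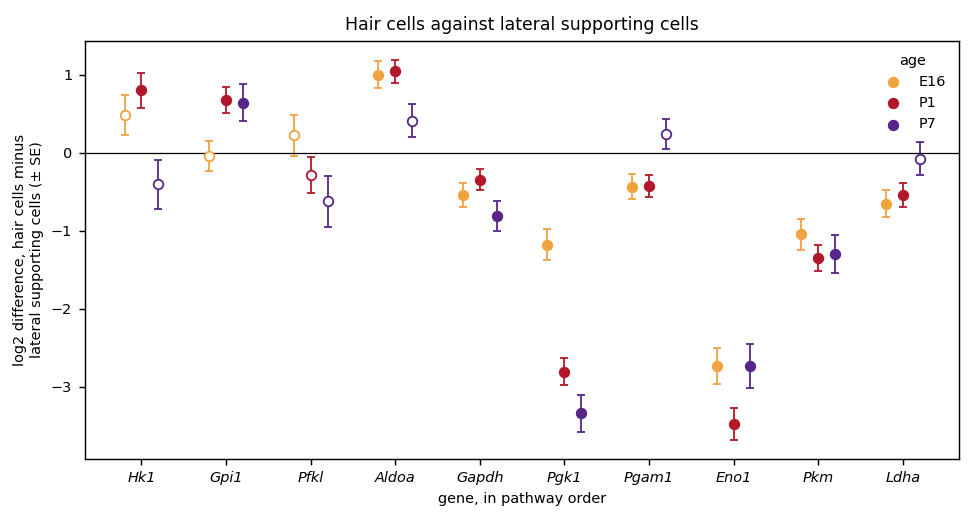
Log2 difference (HCs minus lateral SCs, limma on log2(CPM + 10)) of each member, in pathway order, at E16, P1 and P7; bars are standard errors, filled points passed the adjusted p threshold of 0.05 and open points did not. Pgk1, Eno1 and Pkm lie below 0 at all 3 ages, and Aldoa lies above 0, with its P7 point open.

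**Figure D2:**
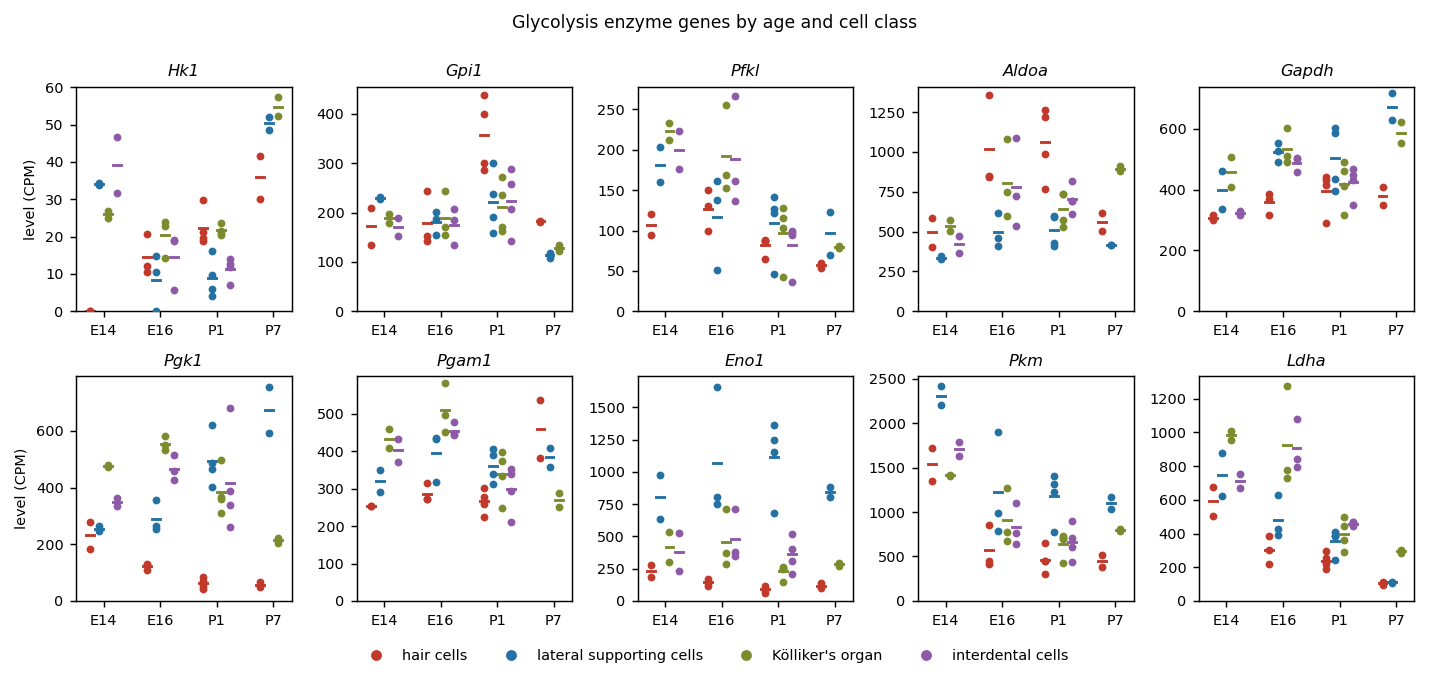
Level of each member in CPM (linear axes from 0) by age, 1 point for each library and class and a short line at the mean. Lateral SCs have the highest mean for Eno1 and Pkm at P1 (1111 and 1182 CPM), HCs lie lowest for Pgk1 and Eno1 from E16 on, and Ldha has its lowest mean at P7 in HCs, lateral SCs and KO.

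Next, the difference between HCs and lateral SCs was itself compared between E16 and P1, with an interaction contrast. Pgk1 was the 1 member called. Its HC minus lateral SC log2 difference at P1 minus that at E16 was -1.63 ± 0.26 (adjusted p = 3e-05), and the call held under every alternative. Of all genes tested, 3.72% were called as lower and 3.70% as higher in this contrast. Pgk1 fell in HCs from 122 ± 11.6 (n = 3) to 62.9 ± 19.1 CPM (SD, n = 4), without overlap, while lateral SCs went from 290 ± 55.8 to 493 ± 90.8 CPM, a change whose call was lost in 10 of 25 alternatives. For Gpi1 the contrast was 0.71 ± 0.25 (adjusted p = 0.075, weighted 0.036), so that 2 members were called with weighting, of 12.9% of all genes. For the other 8 members adjusted p ranged from 0.14 to 0.99, which does not show that their differences stayed the same.

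Isozymes of several members also differed between the same classes. A list of 42 other pathway genes was counted, of which 21 passed the filter on low values, and at P1 6 of these 21 were higher and 7 lower in HCs than in lateral SCs, where 21.7% of all genes were higher and 22.4% lower. Aldoc, the brain-type aldolase, was at 28.2, 14.6, 19.2 and 20.6 CPM in P1 HCs and at 720, 749, 579 and 297 CPM in lateral SCs. Its log2 difference was -4.22 ± 0.23 (adjusted p = 5.9e-20), opposite in sign to that of Aldoa. Pgam2, the muscle phosphoglycerate mutase, was at 360.2, 379, 454 and 161 CPM in P1 HCs, and 3 of the 4 lateral SC profiles were at 0 and the other at 1.96 CPM. Its log2 difference was 4.97 ± 0.24 (adjusted p = 1.6e-21), beside -0.43 for Pgam1. Pfkp, the platelet-type phosphofructokinase, was at 71.1 CPM in P1 HCs and 1.47 CPM in lateral SCs (log2 difference 2.80 ± 0.24).

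Ldhb, the lactate dehydrogenase subunit of heart, was at 824, 695, 659 and 715 CPM in P1 HCs and at 2417, 2719, 2275 and 1579 CPM in lateral SCs (log2 difference -1.60 ± 0.16). Tpi1, triosephosphate isomerase, the step that no member holds, was at 76.9 and 137 CPM (-0.74 ± 0.18). Pfkm and Eno3 were at 19.5 and 11.3 CPM in P1 HCs and did not pass the test at P1. Hk2 and Eno2, with means of 8.73 and 6.63 CPM, were below the filter and were not tested.

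**Figure D3:**
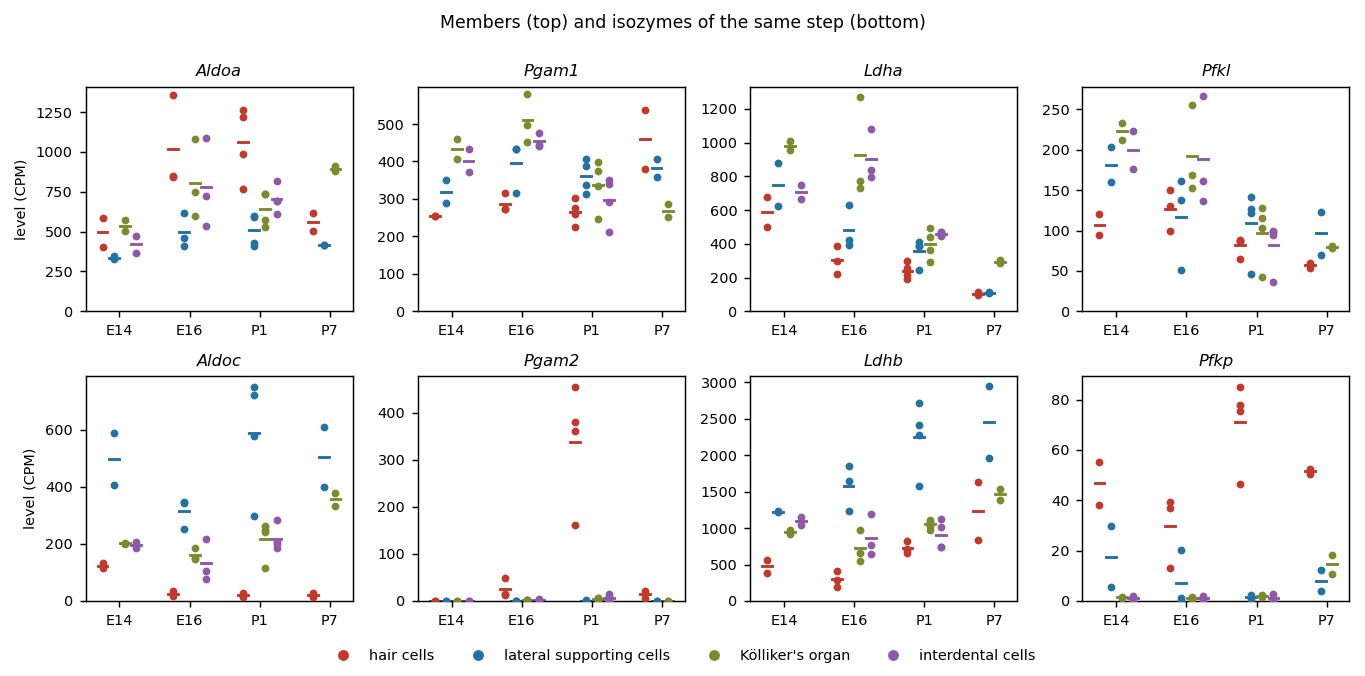
Level in CPM (linear axes from 0) of 4 members in the top row and of an isozyme of the same step below each, by age, 1 point for each library and class and a short line at the mean. Aldoc and Ldhb lie highest in lateral SCs, Pgam2 stands out in P1 HCs at a mean of 339 CPM, and Pfkp lies highest in HCs.

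Against KO at P1, HCs had 2 members higher and 4 lower, where 26.6% of all genes were higher and 21.7% lower. The higher members were again Gpi1 (log2 difference 0.74 ± 0.17) and Aldoa (0.70 ± 0.15), and the lower ones Pgk1 (-2.45 ± 0.17), Eno1 (-1.26 ± 0.20), Ldha (-0.70 ± 0.15) and Pkm (-0.48 ± 0.17). The HC profiles are the same ones as in the comparison with lateral SCs. Without P1 replicate 2 or 3 the Pkm call was lost. At P1 Pgam1 did not pass (log2 difference -0.32, adjusted p = 0.0504) but passed as lower in HCs under 13 of 26 alternatives. At P7, 1 member was higher and 6 lower in HCs than in KO, where 22.7% of all genes were higher and 19.6% lower. Pgk1 (-1.74 ± 0.24), Ldha (-1.41 ± 0.21), Eno1 (-1.21 ± 0.28) and Pkm (-0.83 ± 0.24) were lower as at P1, and Gapdh was lower too (-0.62 ± 0.19). Aldoa had the opposite sign to P1, at 618 and 504 CPM in HCs and 909 and 878 CPM in KO (-0.67 ± 0.21, adjusted p = 0.0092), and Pgam1 was higher in HCs, at 537 and 381 CPM against 287 and 251 CPM (0.73 ± 0.20, adjusted p = 0.0023). These P7 calls held with profiles weighted by precision, the 1 alternative looked at for them. With that weighting Gpi1 was also called higher in HCs (limma adjusted p = 0.00812) and Hk1 lower (limma adjusted p = 0.0264). KO marker genes summed to between 2219 and 5126 CPM in P1 HCs and to between 19110 and 23600 CPM in KO, and their part in these differences was not tested.

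Lateral SCs had 2 members higher and 1 lower than KO at P1, where 10.9% of all genes were higher and 7.85% lower, and with weighting 6 members were called, of 36.1% of all genes. Eno1 was 4.85-fold higher (log2 difference 2.21 ± 0.20, adjusted p = 3.1e-12) and Pkm 1.84-fold higher (0.87 ± 0.17), both under every alternative. Hk1 was lower (-0.78 ± 0.22), a call lost without P1 replicate 1 or 4. Pgk1, so low in HCs, was at 493 ± 90.8 CPM in lateral SCs and 384 ± 80.2 CPM in KO (SD, n = 4, adjusted p = 0.16, weighted 0.032). At the other ages its sign was not the same: lateral SCs were lower than KO in Pgk1 at E14 (-0.88 ± 0.24, adjusted p = 0.0088, weighted 0.061) and E16 (-0.93 ± 0.20, adjusted p = 0.00047), and higher at P7 (1.6 ± 0.24, adjusted p = 1.7e-06). The change of the Pgk1 difference with age was not tested. Eno1 was higher in lateral SCs than in KO at E14 (0.955 ± 0.284, limma adjusted p = 0.0161, lost with weighting). It was also higher at E16 (1.219 ± 0.232, adjusted p = 8.6e-05) and P7 (1.530 ± 0.284, adjusted p = 6.33e-05). Ldha was lower in lateral SCs than in KO at E16 (-0.91 ± 0.17, limma adjusted p = 9.3e-05) and P7 (-1.33 ± 0.21, adjusted p = 5e-06). Aldoa was lower at E14 (-0.65 ± 0.21, lost with weighting), E16 (-0.67 ± 0.17) and P7 (-1.08 ± 0.21). Hk1 (-0.804 ± 0.256, limma adjusted p = 0.0236) and Pfkl (-0.773 ± 0.266, adjusted p = 0.0392, lost with weighting) were lower at E16. The shares of all genes called in lateral SCs against KO at these ages are not given. Pkm was higher at E14 (lost with weighting). It did not pass at E16 or P7 (adjusted p = 0.23 and 0.20, weighted 0.022 and 0.038). The order of Pgk1 levels at P1 was thus lateral SCs, interdental cells (417 ± 184 CPM), KO and HCs, of which the first 3 had overlapping ranges. For Eno1 it was lateral SCs, interdental cells (360 ± 132 CPM), KO and HCs, with interdental cells and KO overlapping.

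Interdental cells and KO, which are neighbours in the medial epithelium, were not told apart by any member at P1 in limma with adjusted p under 0.05, of 10.9% of all genes called. At an unadjusted p under 0.05, 2 members passed, Eno1 (log2 difference 0.59 ± 0.20, adjusted p = 0.051) and Hk1 (-0.57 ± 0.22, adjusted p = 0.096). With profiles weighted by precision, 1 member, Hk1, was called lower in interdental cells, as were 11.2% of all genes. Eno1 passed under 10 of 26 alternatives and Hk1 under 5 of 25. For Gapdh the log2 difference was 0.03 ± 0.13 and for Pkm 0.03 ± 0.17.

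Ages were compared next, from E16 to P1 within each class. In HCs Gpi1 rose and Pgk1 fell, where 7.95% of all genes rose and 6.16% fell. Gpi1 was at 142, 153 and 243 CPM at E16 and at 300, 400.0, 439 and 287 CPM at P1, without overlap, a log2 difference of 0.97 ± 0.21 (adjusted p = 0.0011) that held under every alternative. Pgk1 changed by -0.89 ± 0.22. Among the isozymes, Pgam2 went from 14.4, 11.7 and 49.7 CPM to between 161 and 454 CPM (log2 difference 3.37 ± 0.32), Ldhb from 297 to 723 CPM (1.31 ± 0.21) and Pfkp from 29.9 to 71.1 CPM (1.07 ± 0.31). Inner and outer HCs (IHCs and OHCs) were gated within HCs by markers of their own. Of 549 HCs at E16, 54 were labelled IHC and 61 OHC, and the rest got neither label. Of 1030 HCs at P1, 183 were labelled IHC and 498 OHC. OHC markers in HCs went from between 18.7 and 28.5 CPM to between 195 and 279 CPM. Marker levels can change with age within a cell type, so these counts do not measure the make-up of the class. The part of the mix of IHCs and OHCs in the changes in HCs was not tested.

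In KO, 4 members fell from E16 to P1 and none rose, where 3.51% of all genes fell and 3.22% rose. Ldha was at 730, 774 and 1273 CPM at E16 and at 291, 443, 497 and 364 CPM at P1. All P1 profiles were below all E16 profiles, and the log2 difference was -1.18 ± 0.20 (adjusted p = 3.5e-05). Pfkl fell by 0.97, Eno1 by 0.89 and Pgam1 by 0.59 on the log2 scale. Gpi1 passed as higher in KO at P1 with profiles weighted by precision (0.46 ± 0.10) and not without (0.14 ± 0.21). Ldha kept its call under every alternative, whereas without E16 replicate 2 or 3 it was the 1 member of the 4 still called. Eno1 also lost its call without P1 replicate 1 or 2, Pfkl without P1 replicate 4, and Pgam1 without E16 replicate 1 or P1 replicate 4. Cycling genes also fell in KO, from between 80.6 and 168 CPM at E16 to between 11.96 and 22.18 CPM at P1, and markers of Hensen's cells and the lesser epithelial ridge went in KO from between 148 and 179 CPM to between 426 and 757 CPM. Their part in these changes was not tested.

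In interdental cells, 3 members fell over the same step and none rose, where 6.43% of all genes fell and 5.49% rose. Ldha was at 839, 797 and 1080 CPM at E16 and at 468, 454, 469 and 445 CPM at P1, a log2 difference of -0.95 ± 0.20 (adjusted p = 0.00061) that held under every alternative. Pfkl fell by 1.14 and Pgam1 by 0.62 on the log2 scale, and without E16 replicate 3 both calls were lost. The Pgam1 call was also lost without either of the other E16 libraries or P1 replicate 4. Tpi1 fell as well, from 425 to 213 CPM in KO and from 361 to 167 CPM in interdental cells (log2 differences -0.96 ± 0.23 and -1.08 ± 0.23). In interdental cells the glia markers went from between 32.0 and 73.8 CPM to between 88.1 and 150 CPM, and the markers of Hensen's cells and the lesser epithelial ridge from between 162 and 222 CPM to between 242 and 682 CPM, and their part in these changes was not tested. In lateral SCs 1 member rose, where 3.65% of all genes rose and 2.77% fell. This was Pgk1, which went from 253, 264 and 355 CPM to between 404 and 619 CPM (0.74 ± 0.22, adjusted p = 0.033, weighted 0.071). Without E16 replicate 1 or 2 or P1 replicate 3 or 4 the call was lost. In lateral SCs their own markers went from between 3458 and 3929 CPM at E16 to between 5640 and 7602 CPM at P1. The markers of Hensen's cells and the lesser epithelial ridge went there from between 592 and 686 CPM to between 794 and 897 CPM. The part of these shifts in the Pgk1 change was not tested.

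From P1 to P7 Ldha fell in both HCs and lateral SCs. In lateral SCs it went from 244, 386, 387 and 411 CPM to 108 and 113 CPM, a log2 difference of -1.58 ± 0.22 (adjusted p = 8e-07) that held under every alternative. In HCs it went from between 190 and 297 CPM to 113 and 95.6 CPM (-1.11 ± 0.22, adjusted p = 0.00019). The 2 classes, which differed at P1, were at 104 ± 12.5 and 110 ± 4.18 CPM at P7 (SD, n = 2; log2 difference -0.08 ± 0.21). In HCs 1 member rose and 3 fell, where 6.86% of all genes rose and 10.3% fell. In lateral SCs 1 rose and 2 fell (4.43% and 7.08% of all genes), and in KO 1 rose and 1 fell (6.17% and 7.34%).

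Gpi1 and Aldoa, which were high in P1 HCs, fell in HCs to 183 ± 1.33 and 561 ± 80.7 CPM at P7 (log2 differences -0.90 ± 0.24 and -0.89 ± 0.22). Gpi1 lost its call without either P7 library and Aldoa without P7 replicate 5 (adjusted p = 0.127). Pgam1 rose in HCs from 266 ± 32.1 to 459 ± 110 CPM (0.75 ± 0.20), lost without P7 replicate 4 (adjusted p = 0.264), while Pgam2 fell from 339 to 14.5 CPM (-3.81 ± 0.36). At P7, 107 of 253 HCs were labelled IHC and 75 OHC. The study counted more OHCs than IHCs at P7, so these labels do not measure the make-up of the class. In HCs the IHC markers went from between 356 and 656 CPM at P1 to between 987 and 1142 CPM. The OHC markers went from between 195 and 279 CPM to between 438 and 716 CPM. Their part in the changes in HCs was not tested. Gpi1 fell in lateral SCs too (-0.87 ± 0.24, lost without either P7 library or P1 replicate 3). Hk1 rose in lateral SCs from 8.95 ± 5.35 to 50.4 ± 2.48 CPM (1.71 ± 0.33) and in KO from 21.6 ± 1.46 to 54.9 ± 3.43 CPM (1.03 ± 0.33).

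In KO the other member called was Pgk1, which fell from 384 ± 80.2 to 215 ± 12.2 CPM (-0.79 ± 0.25), and both KO calls were lost without either P7 library or P1 replicate 3. With profiles weighted by precision 8 members were called in KO, of 49.3% of all genes. Genes induced by dissociation, such as Fos and Jun, summed to between 684 and 2153 CPM in P1 HCs and between 3656 and 7158 CPM in P7 HCs, and to between 2733 and 4301 CPM in P1 KO and 5483 and 7725 CPM in P7 KO. In lateral SCs they went from between 1218 and 2207 CPM to between 2334 and 2482 CPM, the HC markers there from between 191 and 373 CPM to between 498 and 609 CPM, and the markers of Hensen's cells and the lesser epithelial ridge from between 794 and 897 CPM to between 1062 and 1529 CPM. In KO the markers of Hensen's cells and the lesser epithelial ridge went from between 426 and 757 CPM to between 1087 and 1287 CPM, and the mesenchyme markers from between 8.34 and 29.3 CPM to between 50.7 and 88.9 CPM. Their part in the changes from P1 to P7 was not tested.

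**Figure D4:**
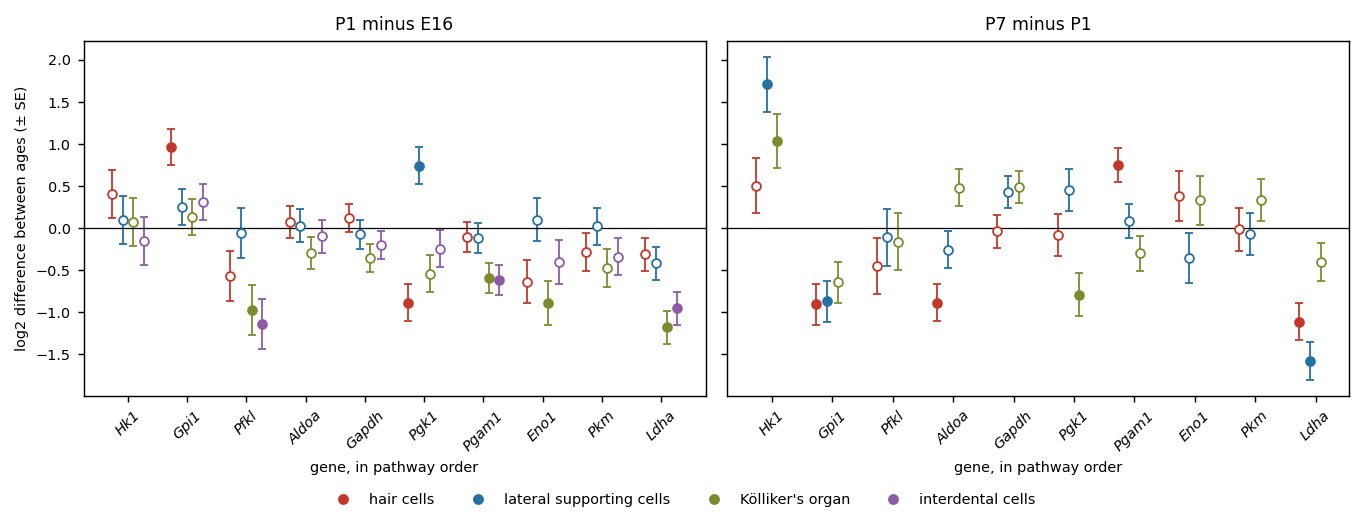
Log2 difference between ages within each class (limma on log2(CPM + 10); bars are standard errors) for the members in pathway order, P1 minus E16 on the left and P7 minus P1 on the right; filled points passed the adjusted p threshold of 0.05. Ldha lies lowest in KO in the left panel (-1.18) and in lateral SCs in the right one (-1.58), and no interdental cells were gated at P7.

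The step from E14 to E16 rests on few HCs and lateral SCs. Pkm was at 1351 and 1722 CPM in E14 HCs and at 451, 415 and 859 CPM in E16 HCs (log2 difference -1.47 ± 0.27, adjusted p = 9.7e-05, weighted 0.012). It was the 1 member still called there with weighting, where 0.534% of all genes were called lower, out of 5 members called without it (2 higher and 3 lower, beside 10.9% and 8.38% of all genes). Hk1, among the higher ones, went from 0 CPM at E14 to a mean of 14.5 CPM at E16, near the detection limit. Pkm was at 2198 and 2419 CPM in E14 lateral SCs and at 783, 985 and 1901 CPM at E16 (adjusted p = 0.009, weighted 0.22). Pkm and Hk1 were the 2 members called lower there and none was higher (6.69% and 5.73% of all genes), and none was called with weighting, of 0.959% of all genes. Without E16 replicate 1 both calls were lost, and without E14 replicate 2 that of Pkm. In lateral SCs the KO markers went from between 1518 and 1899 CPM at E14 to between 2065 and 2380 CPM at E16. The markers of Hensen's cells and the lesser epithelial ridge went there from between 435 and 509 CPM to between 592 and 686 CPM. In KO, with 1826 cells at E14, Pkm was at 1409 and 1415 CPM and then at 679, 775 and 1272 CPM (-0.68 ± 0.27, adjusted p = 0.20, weighted 2.3e-08). No member passed in KO in limma, of 2.81% of all genes called, 2 passed at an unadjusted p under 0.05 (Aldoa and Pkm), and with weighting 4 did, of 44.9% of all genes. In interdental cells 1 member was higher and 2 were lower, where 4.63% of all genes were higher and 7.65% lower. Pkm fell from 1635 and 1783 CPM to between 642 and 1104 CPM (-1.06 ± 0.27, adjusted p = 0.0063, weighted 0.020), Hk1 fell (-1.04 ± 0.34, adjusted p = 0.038, weighted 0.043) and Aldoa rose (0.83 ± 0.23, adjusted p = 0.013, weighted 0.042). In these cells the KO markers went from between 6880 and 6971 CPM to between 10880 and 15570 CPM and the markers of Hensen's cells and the lesser epithelial ridge from between 282 and 296 CPM to between 162 and 222 CPM. Over the same step the dissociation genes went from between 1764 and 2676 to between 959 and 1233 CPM in HCs and from between 4986 and 6428 to between 1722 and 2643 CPM in lateral SCs, and the cycling genes in KO from between 713 and 926 to between 80.6 and 168 CPM. In HCs the IHC markers went from between 668 and 672 CPM at E14 to between 248 and 359 CPM at E16. The OHC markers there went from between 0 and 3.15 to between 18.7 and 28.5 CPM, and the KO markers from between 1170 and 1739 to between 1955 and 2357 CPM. The part of all these genes and markers in the changes was not tested.

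Within HCs, IHCs and OHCs were compared at P1. The fit left 3 residual degrees of freedom, and limma borrows spread from other genes. Its standard errors and p-values for IHCs against OHCs thus need not measure a gene's own spread between libraries. Pgam1 alone of the 10 members was called. It was at 388, 372, 226 and 337 CPM in IHCs and at 282, 245, 183 and 274 CPM in OHCs of the 4 libraries, higher in IHCs in each (log2 difference 0.40 ± 0.12, limma adjusted p = 0.014). Of 8750 genes tested, 4.82% were higher in IHCs and 6.41% lower, so that 1 of 10 members is near the share of all genes called. The call was lost without P1 replicate 1 (adjusted p = 0.0624) or 2 (adjusted p = 0.112), while Aldoa and Eno1 passed without replicate 1 (adjusted p = 0.028 and 0.0155) and Pfkl without replicate 2 (adjusted p = 0.0264). Pfkl (0.56 ± 0.20), Eno1 (0.49 ± 0.18) and Gpi1 (-0.29 ± 0.11) had adjusted p of 0.051, 0.074 and 0.076, and Pfkl passed under 5 and Eno1 under 4 of 17 alternatives. Pfkl was at 154, 88.2, 106 and 74.8 CPM in IHCs and at 44.4, 84.5, 80.05 and 62.7 CPM in OHCs, with the widest gap in replicate 1. Pgk1 was at 63.5 CPM in IHCs and 56.5 CPM in OHCs, low in both.

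Of the 21 other pathway genes tested, 1 was higher and 4 lower in IHCs than in OHCs, and 16 did not pass. Of all genes tested, 4.82% were higher and 6.41% lower. Pgam2 was at 715 CPM in IHCs and 281 CPM in OHCs (log2 difference 1.24 ± 0.12). Ldhb went the other way, with 348 and 897 CPM (-1.35 ± 0.09), as did Aldoc, with 8.16 and 21.6 CPM (-0.86 ± 0.29). Mpc1, a subunit of the carrier that brings pyruvate into mitochondria, was at 193 CPM in IHCs and 1317 CPM in OHCs (-2.75 ± 0.10). Mpc2, the other subunit, was at 271 and 346 CPM (-0.35 ± 0.12). Ranges of the 4 libraries did not overlap for these 5 genes, which were picked by the test. The share of all genes without overlap is not given, so this adds no support.

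Summed, the 10 members made up 0.262% to 0.333% of UMIs in the 4 P1 HC profiles and 0.366% to 0.542% in the lateral SC profiles, higher in lateral SCs of each library. The mean share in HCs was 0.312% at E16, 0.304% at P1 and 0.240% at P7, and in lateral SCs 0.479%, 0.486% and 0.446%. In KO the mean share was 0.516% at E14 and 0.510% at E16, then 0.338% in P1 and 0.360% in P7 libraries.

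The members did not share 1 pattern over the 15 means by age and class. Of the 45 pairs of members, 24 had a positive and 21 a negative Pearson correlation, with a median of 0.05 and a range from -0.79 (Aldoa with Pkm) to 0.82. Pgk1 and Eno1, which act 2 steps apart, correlated at 0.77, and Gpi1 and Aldoa correlated negatively with the mean pattern of all 10 (-0.12 and -0.27). Outside the lists used here, the genes with the pattern most like that mean were Esrp1 (0.88), Sox10 (0.88), Rab2b (0.86), Snap23 (0.85) and Airn (0.85). These are descriptions over 15 points that share libraries.

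Genes around the pathway were taken from the same list. Mpc1 was at 1433, 826, 717 and 1217 CPM in P1 HCs and at 149 to 210 CPM in lateral SCs (log2 difference 2.44 ± 0.16). It rose in HCs from E16 to P1 (1.55 ± 0.21), the step over which OHC markers in HCs also rose. Slc2a1, the glucose transporter GLUT1, was at 26.5 CPM in P1 HCs and 78.5 CPM in lateral SCs (-1.24 ± 0.23), and Bsg, the partner of the lactate transporters, at 962 and 1658 CPM (-0.79 ± 0.13). Bsg rose from E16 to P1 in KO, from 929 to 2151 CPM (1.20 ± 0.17), and in interdental cells, from 993 to 2481 CPM (1.26 ± 0.17), the step at which Ldha fell. Pfkfb4, which makes the activator of phosphofructokinase, was higher in P1 HCs (35.9 and 4.37 CPM, 1.68 ± 0.27), while Adpgk (-0.91 ± 0.24) and Pdk3 (-0.92 ± 0.25), an inhibitor of pyruvate dehydrogenase, were lower. Fbp2 and Pdk1 fell in interdental cells from E16 to P1 (-1.15 ± 0.31 and -0.98 ± 0.28).

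Of 12 hypoxia-response genes 9 were tested, and at P1 2 were higher and 3 lower in HCs than in lateral SCs, beside 21.7% and 22.4% of all genes. Hif1a, the oxygen-regulated transcription factor, was at 44.5 and 112 CPM (-1.26 ± 0.24), and Ndrg1 at 1.44 and 8.60 CPM (-0.66 ± 0.23). The 2 that were higher were Ddit4 at 73.3 and 27.1 CPM (1.19 ± 0.28) and Ankrd37 at 30.4 and 9.29 CPM (1.04 ± 0.28). From E16 to P1, 1 of the 9 rose and 1 fell in KO, where 3.22% of all genes rose and 3.51% fell. In interdental cells 2 rose, where 5.49% of all genes rose and 6.43% fell. The median log2 difference of the 9 was -0.19 in KO and -0.41 in interdental cells. P4ha2, a collagen prolyl hydroxylase, rose in KO from 29.0 to 176 CPM (2.32 ± 0.34), and Car9, a carbonic anhydrase, rose in interdental cells from 102 to 443 CPM (1.89 ± 0.30), where Ndrg1 also rose (1.52 ± 0.30). The gene that fell in KO was Bnip3, a mitochondrial receptor for mitophagy, from 123 to 63.1 CPM (-0.88 ± 0.28), which is named because it was the 1 called lower.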

How the data were processed

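Cells came from dissociated cochlear epithelium and were captured on the 10x Chromium platform. The authors aligned reads to mm10 and counted UMIs with Cell Ranger 2.1.1, removed cells by limits on genes, UMIs, mitochondrial and stress genes, and normalized the rest in Seurat 2.0, per the methods and the submitters' processing notes. The deposited values are natural log (ln) values, ln(1 + 10000 × share of the cell's UMIs), 1 table per age. The methods name an upper limit of 3000 genes together with a limit on UMIs, which can be read as a joint limit. The deposited tables held 892, 149, 1134 and 265 cells above 3000 genes at E14, E16, P1 and P7. Above the UMI limit they held 87, 0, 65 and 24 cells. Here the values were back-transformed to CPM. UMIs worked back from them were whole within 2% for 100% of values, but a count model was not used because the tables hold ln values.

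Cells were gated by the mean of their marker levels, each capped at its 99th percentile (score of at least 0.25 and a lead of 0.1 over the next list). These limits were set from marker scores after seeing them. No doublet caller was run, and the lead keeps out only cells whose scores on 2 lists are close. Names of classes were rebuilt from markers, many of which the study chose on these libraries, so that classes may differ from the study's clusters.

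Profiles of a class in a library needed 10 cells. Genes averaging 10 CPM or more (9172, and 8750 for IHCs against OHCs) were tested on log2(mean CPM + 10) with limma 3.58.1 in R 4.3.3, in 1 fit of all classes and ages with a mean trend and the library as a block (correlation 0.301), and Benjamini-Hochberg adjustment at 0.05. Fold changes of low genes are understated by the added 10 CPM. IHCs and OHCs were fitted with the library as a fixed term, which left 3 residual degrees of freedom. The test was also checked on simulated data, which led to an added fit that weights each profile by its estimated precision, since profiles at E14 rest on 15 to 24 cells in HCs and lateral SCs. Libraries are litters, so that p-values measure the spread between pools, part of which limma borrows from other genes. Values after ± are SDs between libraries for CPM levels and limma standard errors for log2 differences. Floors, the CPM that 3 UMIs would give, cover counting error only.

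All 10 members are named. Of the other pathway genes, Tpi1, isozymes of a member that passed the filter, and 8 others and 4 hypoxia-response genes with large changes were named. Mpc2, Bnip3, Ddit4 and Ankrd37 were named after their values were seen. Members, lists and tests were chosen with earlier results of these data known. Promoter sequences and gene positions are from RefSeq, GRCm38.p6, and all 10 members matched. Alternatives were other pseudocounts, filters, scalings, averages, gates, depths, blocks and each library left out. Python 3.11.15 and pandas 2.3.3 were used.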

Additional observations from a re-analysis of the deposited data

Results flagged for a closer look

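Of 60 sets of 4 libraries tested for a stray value, that is each member in each class at P1 and in the 2 HC types, 5 held a library far from the other 3 (8.33%), and chance gives about 1 in 20. Pfkl in HCs was 64.5 CPM in P1 replicate 4, below 86.9 to 88.4 CPM in the other 3 libraries. In interdental cells Pfkl was 36.5 CPM in the same library, below 93.9 to 99.1 CPM. In P1 replicate 1, Eno1 was low in KO at 151 CPM (249 to 265 CPM in the others), Pkm was low in KO at 429 CPM (700 to 726 CPM), and Ldha was low in lateral SCs at 244 CPM (386 to 411 CPM). The Pgk1 difference between HCs and lateral SCs changed from E16 to P1 by -1.631 on the log2 scale, by the test of the change itself (limma adjusted p = 3e-05).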

How the results depend on the processing

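Of 60 calls of a member in the 19 comparisons tallied over the alternatives, 25 were kept under every alternative and none changed direction. Outside this tally are the calls for HCs against KO at P7 and for E16 against E14 in interdental cells. Those for lateral SCs against KO at ages other than P1 are outside it too. The other 35 of the 60 were lost under at least 1. Counts of members called that moved by over 1.5 times are given next, with the count reported above in the text or in brackets; where no value here shows a cause, the cause was not tested. With 50 CPM as the pseudocount 2 members were called for IHCs against OHCs (1), and with 1 CPM 1 for P7 against P1 in KO (2). With a filter at 50 CPM, which tests fewer genes, 1 was called for interdental cells against KO (0), 1 for E16 against E14 in lateral SCs (2), 1 for P7 against P1 in KO, 2 for IHCs against OHCs and 2 for the change of the HC minus lateral SC difference (1), and with no filter 2 for P1 against E16 in KO (4). With median-ratio rescaling the counts were 1 for interdental cells against KO, 0 and 2 for P1 against E16 in lateral SCs (1) and KO, and 2 for IHCs against OHCs. With CPM without mitochondrial and ribosomal protein genes they were 1 for interdental cells against KO and 0 for P1 against E16 in lateral SCs. With summed UMIs they were 4 for HCs against lateral SCs at E14 (2), 1 for interdental cells against KO, 1 for P1 against E16 in KO and 2 for IHCs against OHCs. With the mean of ln values they were 2 for interdental cells against KO, 5 and 1 for E16 against E14 in lateral SCs and KO (0), 2 and 1 for P1 against E16 in lateral SCs and KO, and 3 for IHCs against OHCs. With the stricter gate they were 4 for HCs against lateral SCs at E14, 2 for P1 against E16 in KO, 0 for P7 against P1 in KO and 2 for IHCs against OHCs, and with the z-score gate 1, 2 for interdental cells against KO, 0 for P1 against E16 in lateral SCs and 2 for IHCs against OHCs. Without cells of over 3000 genes 1 was called for P1 against E16 in KO, 1 for P7 against P1 in KO and 0 for IHCs against OHCs. Thinning to 1500 UMIs cut the depth of cells and dropped hardly any, since the smallest cell, in E16 replicate 1, held 1499 UMIs. With it the counts were 4 and 5 for HCs against lateral SCs at E14 and P1 (9), 3 for E16 against E14 in HCs (5), 0 and 1 for P1 against E16 in lateral SCs and KO, 1 and 0 for P7 against P1 in HCs (4) and KO, and 0 for IHCs against OHCs. With the library as a fixed block within the age 2 were called for interdental cells against KO, and with no library block 0 for IHCs against OHCs.

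With profile weights, added after seeing the data, the counts were 1 for HCs against lateral SCs at E14, 6 for lateral SCs against KO (3), 1 for interdental cells against KO, 1, 0 and 4 for E16 against E14 in HCs, lateral SCs and KO, 0 for P1 against E16 in lateral SCs, 8 for P7 against P1 in KO and 2 for the change of the HC minus lateral SC difference. For a pairing of libraries by replicate number, deviations from the mean of each age were correlated. Over the 20 same-numbered pairs of E14 with E16 and E16 with P1 libraries the correlation of deviations ran from -0.251 to 0.0674. The highest for P1 replicate 4 with P7 replicate 4 was 0.0823 (KO). Deviations of libraries of the same age are tied to each other, so these values cannot show whether the numbers pair the libraries. With the replicate number as a block 3 members were called for E16 against E14 in HCs and 3 in KO, and for P1 against E16 0 in lateral SCs, 2 in KO and 1 in interdental cells (3). For P7 against P1 no replicate block could be fitted, since these ages share only the number 4.

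Leaving out 1 library at a time gave 2 to 4, 5 to 7, 7 to 9 and 4 to 5 members for HCs against lateral SCs at E14, E16, P1 and P7, 5 to 7 for HCs against KO, 2 to 3 for lateral SCs against KO and 0 to 2 for interdental cells against KO. It gave 3 to 5, 0 to 3 and 0 to 1 for E16 against E14 in HCs, lateral SCs and KO, 2 to 2, 0 to 1, 1 to 4 and 1 to 3 for P1 against E16 in HCs, lateral SCs, KO and interdental cells, and 2 to 4, 2 to 3 and 0 to 3 for P7 against P1 in HCs, lateral SCs and KO. It gave 1 to 2 for IHCs against OHCs and 1 to 2 for the change of the HC minus lateral SC difference. Depth limits Hk1 at E14, where 3 UMIs are 14.5 CPM in HCs and 10.9 CPM in lateral SCs.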

Other observations

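Pfkl was lowest in P1 replicate 4 in all 4 classes, at 64.5 CPM in HCs, 46.1 CPM in lateral SCs, 42.6 CPM in KO and 36.5 CPM in interdental cells, while Pgk1 was highest in that library in lateral SCs (619 CPM), KO (498 CPM) and interdental cells (681 CPM). Car9 in interdental cells was 847 CPM in the same library and 235 to 388 CPM in the other 3.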
